A study of Mus musculus with 12 samples.

Results

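The sites described here are places in the genome of mouse small pre-B cells where peaks of the chromatin protein BRWD1 were called in both replicates and where peaks of H3K9Ac and H3S10pK14Ac, a pair of histone marks, lay on top of them. They are the peaks of BRWD1 replicate 1 on chromosomes 1 to 19, X and Y that share at least 1 bp with a peak of BRWD1 replicate 2, with an H3K9Ac peak of either replicate and with an H3S10pK14Ac peak of either replicate. There were 235 such sites among the 5814 peaks of that list, or 4.04%. A peak in all 5 larger lists (all but H3S10pK14Ac replicate 1, which holds 103 peaks) was found at 152 of them, or 2.61% of the list, and these are given apart from the other 83. The sites were thus selected on peak calls of the same 6 lists whose values follow, so presence in a list and the scores are descriptions, and no test was made on them.

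The cells had been flow sorted by the markers CD43-, B220+, IgM- and Lin- and by low forward scatter (FSClow), as small pre-B cells, from bone marrow of mice on the C57BL/6 background. Chromatin was immunoprecipitated with antibodies to BRWD1, H3K9Ac or H3S10pK14Ac, with 2 biological replicates for each of the 3 antibodies. Neither the genotype of these 6 samples nor the number of mice behind each is stated in their labels. The series' 2 input samples and its 4 ATAC-seq samples of wild-type and Brwd1-Mut cells were not analysed here.

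BRWD1 carries bromodomains, which bind acetylated lysines, and WD repeats, a fold that often serves in protein contacts. H3K9Ac is acetylation of lysine 9 of histone H3, a mark common at active promoters and enhancers, and H3S10pK14Ac is phosphorylation of serine 10 together with acetylation of lysine 14 on the same histone tail. Small pre-B cells have stopped dividing after making a heavy chain and recombine the immunoglobulin light chain genes, of which Igk is usually the first.

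BRWD1 had 5814 peaks in replicate 1 and 9966 in replicate 2, H3K9Ac had 10118 and 16453, and H3S10pK14Ac had 103 and 10638. Each peak has a score of the authors', read here as −log10 of its significance from the naming of the lists and the values. Its median over a list ran from 5.47 to 6.98, close to the lowest score in any list. Scores grow with read depth, which is unknown, so each was read only within its own list, as its value and as its percentile, where 100 is the highest. Coordinates are in mm9. No genome sequence or gene annotation of that build was used here, so the sites are given by position and without letters or gene names.

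Most of the sites were among the stronger peaks of BRWD1 replicate 1. Their score in that list ran from 5.1 to 214.64 with a median of 18.49, at percentile 97.0, whereas the median of the whole list was 5.47. A score of at least 10 was found at 181 sites (77.02%), against 7.72% of the list, and a score of at least 20 at 113 (48.09%), against 2.84%. Read from the other side, the share of BRWD1 replicate 1 peaks that met the rule was 1.007% below a score of 10 (54 of 5365), 23.94% between 10 and 20 (68 of 284), 64.58% between 20 and 50 (93 of 144) and 95.24% at 50 or more (20 of 21). So nearly every very strong BRWD1 peak of that list was a site with both marks, and few weak peaks were. Sites in repeat windows, described further on, were among the 20. They include all 4 on chromosome 17, scored 51.33 to 93.88, and the highest on chromosome 2, scored 52.28. In BRWD1 replicate 2 the median score over the sites was 18.74, at percentile 98.78. The score was higher in replicate 1 at 115 sites and lower at 120. The percentile was higher in replicate 1 at 55 of the 235. It depends on the length of a list as well as on rank, and replicate 2 has the longer list. The site on chromosome 13 from 92813865 to 92813995, for instance, ranked 5 in replicate 1 and 7 in replicate 2, at percentiles 99.92 and 99.93. The count of 55 therefore does not by itself say which replicate was stronger.

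The 152 sites in all 5 larger lists had higher median scores than the other 83 in each of those lists. The median BRWD1 score was 24.75 against 11.6 in replicate 1 and 22.38 against 14.24 in replicate 2. For H3K9Ac it was 14.49 against 10.68 in replicate 1 and 11.09 against 8.31 in replicate 2, and for H3S10pK14Ac replicate 2 it was 11.58 against 6.95, each over the sites with a peak in that list. The ranges overlapped in every list: BRWD1 replicate 1 scores ran from 5.1 to 214.64 among the former and from 5.1 to 76.77 among the latter. A score of at least 20 in BRWD1 replicate 1 was found at 97 of the 152 (63.82%) and at 16 of the 83 (19.28%). A list holds only peaks above a threshold, so the score of a site and the number of lists that hold it are not independent.

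**Figure D1:**
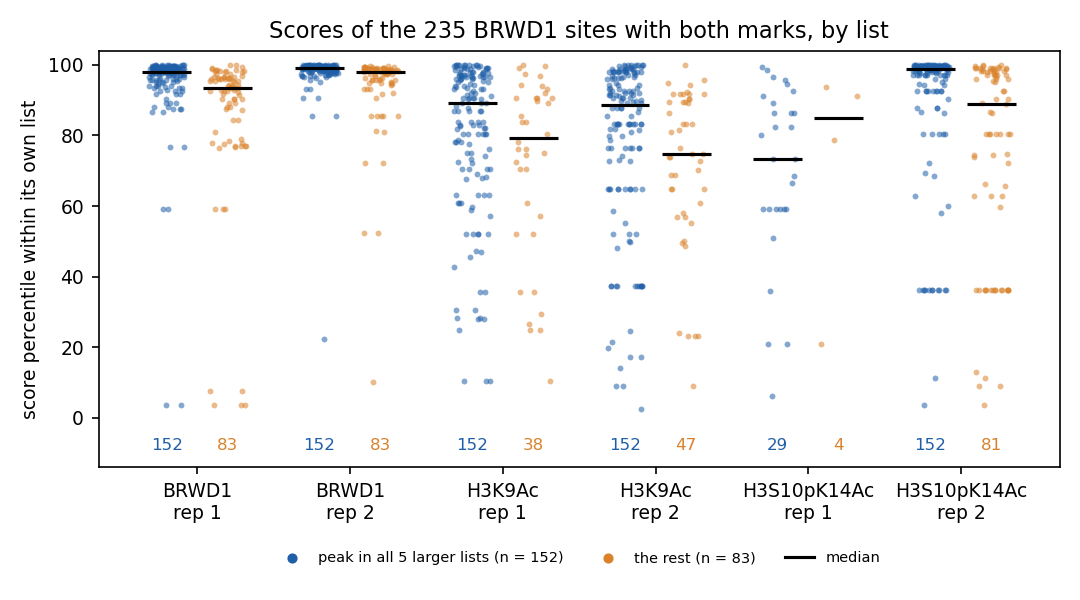
Score percentile of each site within its own list (vertical axis, 0 to 100) for the 6 lists, with 1 point per site and the median as a bar; blue points are the 152 sites in all 5 larger lists, orange points the other 83, and the numbers give the sites with a peak in that list. The BRWD1 points crowd near 100 (medians 98.12 and 93.37 in replicate 1, 99.12 and 97.96 in replicate 2), while the H3K9Ac points spread over most of the axis.

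The median percentile at the sites was lower in the H3K9Ac lists than in the BRWD1 lists, where it was 97.0 and 98.78. Over the 190 sites with a peak in H3K9Ac replicate 1 the median percentile was 86.88, and over the 199 with a peak in replicate 2 it was 85.55, whereas over the 233 sites with H3S10pK14Ac replicate 2 it was 97.91. Of the 50 best peaks of each list, those at the sites numbered 48 in BRWD1 replicate 1, 48 in BRWD1 replicate 2, 27 in H3S10pK14Ac replicate 1 and 44 in H3S10pK14Ac replicate 2. Among the H3K9Ac lists the same count was 10 in replicate 1 and 8 in replicate 2. The strongest peaks of BRWD1 and of H3S10pK14Ac replicate 2 were therefore mostly at these sites, and the strongest H3K9Ac peaks were mostly elsewhere. Some of the strongest lay in repeat or high-signal windows, described further on. These include ranks 2, 3, 4 and 6 of BRWD1 replicate 2 and ranks 3, 5 and 6 of H3S10pK14Ac replicate 2. Rank 4 of BRWD1 replicate 1 and of H3K9Ac replicate 1 lay there too. How many of the best 50 did is not given here. Of all peaks, 2.218% of BRWD1 replicate 2, 1.789% and 1.137% of H3K9Ac replicates 1 and 2, and 2.106% of H3S10pK14Ac replicate 2 lay at the sites.

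H3S10pK14Ac replicate 1 has so few peaks that a site in it stands out. It had a peak at 33 of the 235 sites, against 37 peaks (0.636%) of the BRWD1 replicate 1 list as a whole, and the 33 peaks are 32.04% of that list. All 6 lists had a peak at 29 sites. These 29 were strong in BRWD1: the replicate 1 score ran from 24.0 to 214.64 with a median of 46.01, and the replicate 2 score from 11.7 to 150.45 with a median of 32.9. The score was higher in BRWD1 replicate 1 at 23 of the 29 and lower at 6, while the percentile was higher in replicate 1 at 14 of them. Their median H3K9Ac score was 27.86 in replicate 1 and 14.54 in replicate 2, and their median H3S10pK14Ac score was 7.52 in replicate 1 and 15.86 in replicate 2.

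Of the sites in all 5 larger lists, the one with the best mean percentile lay on chromosome 4, from 124546439 to 124546741. Its 303 bp interval scored 102.43 and 150.45 in BRWD1, 120.3 and 63.36 in H3K9Ac, and 11.34 and 70.64 in H3S10pK14Ac, replicate 1 being given first here and for every pair of scores that follows. It was the top peak of BRWD1 replicate 2 and of H3S10pK14Ac replicate 2 and ranked 3 in BRWD1 replicate 1 and in H3K9Ac replicate 1. The site on chromosome 13 from 92813865 to 92813995 scored 84.01 and 88.41 in BRWD1, 64.99 and 53.24 in H3K9Ac, and 6.68 and 29.91 in H3S10pK14Ac. The site on chromosome 12 from 47959244 to 47959347 scored 81.89 and 64.25, 50.71 and 42.22, and 5.54 and 31.3 in the same order. On chromosome 2, the site from 149350314 to 149350413 scored 69.97 and 52.0, 50.35 and 30.86, and 18.62 and 24.85, the H3S10pK14Ac replicate 1 score being the second highest of that list. Each of these 4 places was hit by all 6 lists, with centres of all lists within 50 bp of the BRWD1 replicate 1 centre. Of the 10 best sites, 5 were in all 6 lists (these 4 and 1 at Igk) and the other 5 were in windows of repeated sequence, described further on.

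At the other end, the 5 sites in all 5 larger lists with the lowest mean percentile each had a score under 6 in at least 1 list. The lowest, on chromosome 10 from 43877603 to 43877661, was 59 bp wide and scored 5.47 and 7.63 in BRWD1, 6.98 and 5.24 in H3K9Ac, and 5.86 in H3S10pK14Ac replicate 2. It was also one of the 2 narrowest sites, with chromosome 9 from 3016054 to 3016112, which was not in all 5 larger lists. The site on chromosome 15 from 5229689 to 5229748 scored 5.1 and 11.2 in BRWD1, 7.73 and 6.22 in H3K9Ac, and 13.18 in H3S10pK14Ac replicate 2. On chromosome 7, the site from 80381986 to 80382054 scored 11.21 and 10.78, 5.63 and 5.6, and 6.36 in the same order. The remaining low pair, on chromosome 17 from 16154368 to 16154461 and on chromosome 11 from 48632031 to 48632133, had BRWD1 scores of 20.09 and 11.7 and of 23.35 and 18.53, so that weak peaks of the marks and not of BRWD1 set their place: the H3S10pK14Ac replicate 2 scores were 5.56 and 5.14.

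**Figure D2:**
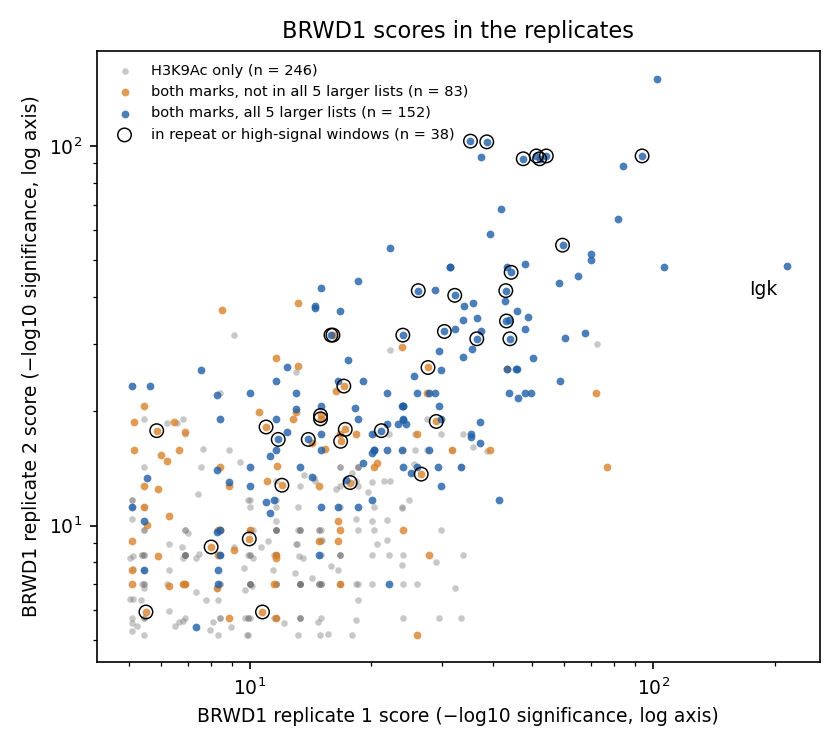
BRWD1 score in replicate 1 (horizontal, log axis) and replicate 2 (vertical, log axis), 1 point per site; blue is the 152 sites in all 5 larger lists, orange the other 83, gray the 246 reproducible BRWD1 peaks with H3K9Ac only, and rings mark the 38 sites in repeat or high-signal windows. The gray points lie mostly low (medians 11.6 and 8.36), and the Igk site stands at the far right with 214.64 in replicate 1 and 48.3 in replicate 2.

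The nearest set for comparison is the 246 peaks of BRWD1 replicate 1 that overlap replicate 2 and H3K9Ac but no H3S10pK14Ac peak. Together with the 235 sites and 204 reproducible peaks without H3K9Ac, they make up the 685 peaks (11.8% of the list) found in both BRWD1 replicates. The BRWD1 replicate 1 median of the H3K9Ac-only peaks was 11.6, the same as that of the 83 sites outside all 5 larger lists, but in replicate 2 it was 8.36 against 14.24. Their H3K9Ac scores were lower than those of the sites with both marks, with medians of 8.53 against 13.33 in replicate 1 and 6.37 against 9.89 in replicate 2. Reproducible peaks without H3K9Ac had BRWD1 medians of 6.91 and 7.0. These differences were not tested, since the sets were cut from the same lists.

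The sites were narrow, though wider than the list they came from. Their median width in BRWD1 replicate 1 was 85 bp, with a lower quartile of 73, an upper quartile of 123.5 and a range of 59 to 1117 bp. A width under 100 bp was found at 145 sites (61.7%), against 86.9% of the list. The peak at a site had a median width of 275 bp in BRWD1 replicate 2, of 375 and 252 bp in the H3K9Ac lists and of 58 and 238 bp in the H3S10pK14Ac lists. Over all peaks of the same lists the medians were 196, 375, 208, 63 and 175 bp, so the peaks at the sites were wider in BRWD1, H3K9Ac and H3S10pK14Ac replicate 2, as wide in H3K9Ac replicate 1 and narrower in H3S10pK14Ac replicate 1.

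The rule asked for an overlap of 1 bp, and most sites met it far more fully. The smallest of the overlaps that made a peak a site had a median of 82 bp, was 39 bp at the least, and equalled the whole BRWD1 interval at 170 sites (72.34%). The BRWD1 interval lay wholly inside an H3K9Ac peak at 219 sites (93.19%), against 11.1% of the BRWD1 replicate 1 list, most of which has no H3K9Ac peak. Among the 246 peaks with H3K9Ac only, it did so at 195 (79.27%). It lay wholly inside an H3S10pK14Ac peak at 181 sites (77.02%), against 3.78% of the list, most of which has no such peak. Of the 36 reproducible peaks with an H3S10pK14Ac peak but no H3K9Ac, 24 lay wholly inside one. By class, 149 of the 152 sites in all 5 larger lists (98.03%) and 70 of the other 83 (84.34%) were inside an H3K9Ac peak.

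Peak centres fell close together. The median distance from the BRWD1 replicate 1 centre was 6.5 bp to BRWD1 replicate 2, 8.75 and 20 bp to the H3K9Ac centres, and 5 and 17.5 bp to the H3S10pK14Ac centres. A distance of at most 50 bp was measured at 184 of 235 sites for BRWD1 replicate 2, 140 of 190 and 148 of 199 for the H3K9Ac lists, and 32 of 33 and 192 of 233 for the H3S10pK14Ac lists. Every list with a peak there had its centre within that distance at 135 sites (57.45%), at nearly the same share of the sites in all 5 larger lists (57.24%) and of the rest (57.83%). At these sites the H3K9Ac and H3S10pK14Ac calls were thus mostly short intervals stacked on the BRWD1 call, not shoulders on one side of it. Among the H3K9Ac-only peaks the median distance was 11.75 bp to BRWD1 replicate 2 and 17.75 and 39.75 bp to the H3K9Ac centres. Their share within 50 bp was higher than that of the sites for BRWD1 replicate 2 (84.96% against 78.3%). For the H3K9Ac lists it was lower (64.09% against 73.68% and 65.12% against 74.37%). Close BRWD1 centres were thus not particular to the sites.

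**Figure D3:**
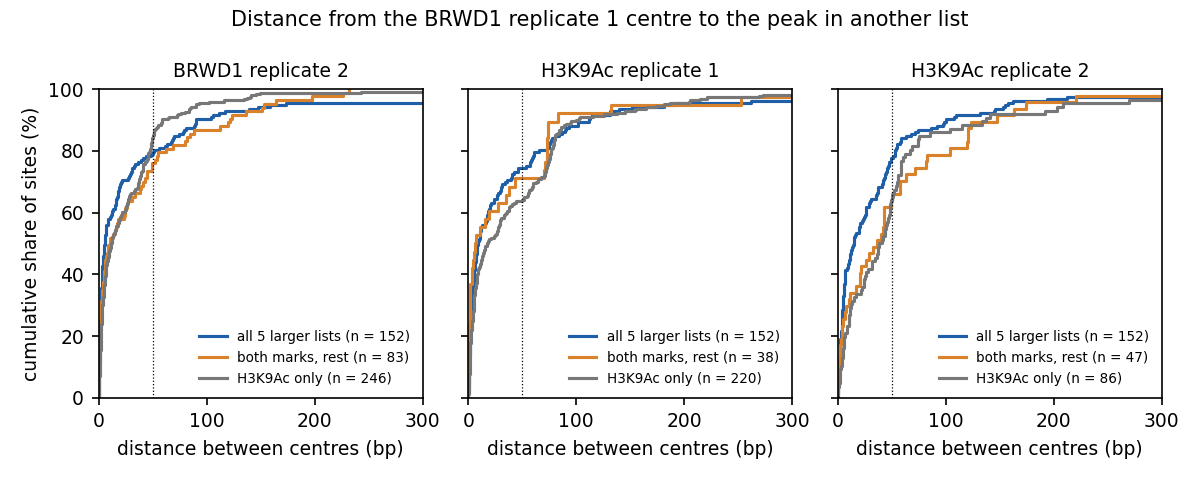
Cumulative share of sites (vertical, percent) against the distance in bp between the BRWD1 replicate 1 centre and the centre of the overlapping peak in BRWD1 replicate 2, H3K9Ac replicate 1 and H3K9Ac replicate 2, with a dotted line at 50 bp. All 3 curves in each panel climb steeply within 50 bp; at that line the H3K9Ac-only curve (gray) stands at 84.96% for BRWD1 replicate 2 and at 64.09% and 65.12% for H3K9Ac.

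The H3K9Ac peaks at the sites stood alone more often than other H3K9Ac peaks. After the repeat and high-signal windows named further on were left out, another peak of the same list lay within 10 kb of 12 of the 166 H3K9Ac replicate 1 peaks at the sites (7.229%) and of 22 of the 157 replicate 2 peaks (14.01%). For the H3K9Ac peaks at none of the sites nor at H3K9Ac-only BRWD1 peaks, the shares were 49.9% of 9723 and 41.22% of 16185. Those of them that scored 10 or more had median scores of 13.33 and 13.72, against 14.03 and 9.62 for the peaks at the sites. All the other peaks had medians of 6.95 and 6.19, so the higher-scoring ones were closer to the sites in replicate 1 but not in replicate 2. Among these higher-scoring peaks the shares were 61.28% and 65.4%. The H3K9Ac-only BRWD1 peaks were alike in this, with 10.75% and 19.75%. With the windows kept in, as they are among the other peaks, the shares at the sites were 14.36% and 26.2%. For H3S10pK14Ac replicate 2 the share was 12.37% at the sites outside the windows and 22.77% with the windows, against 11.94% of the other peaks and 24.53% of those that scored 10 or more (26 of 106). For BRWD1 replicate 2 it was 13.54% and 23.53% at the sites, against 9.512% of the other peaks and 13.19% of those that scored 10 or more. Peaks of at least 1 kb made up 2.21% of the H3K9Ac replicate 1 peaks at the sites, windows included, against 4.813% of the other peaks and 16.1% of those that scored 10 or more. In H3K9Ac replicate 2 they made up 2.139% at the sites, above the 0.6302% of the other peaks and below the 4.172% of those that scored 10 or more, so the direction in that list depends on the peaks set beside the sites.

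**Figure D4:**
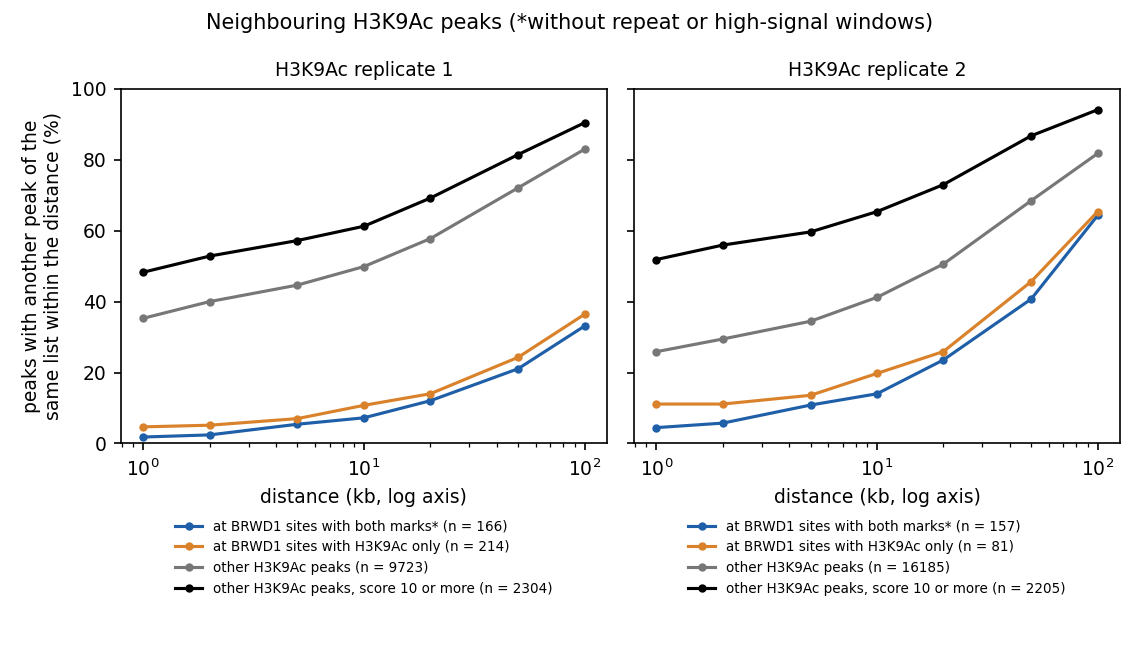
Share of H3K9Ac peaks (vertical, percent) with another peak of the same list within a given distance (horizontal, kb, log axis), in replicates 1 and 2; blue is peaks at the sites outside repeat or high-signal windows, orange at H3K9Ac-only BRWD1 peaks, gray other H3K9Ac peaks and black those of them with a score of at least 10. At 10 kb the blue points are at 7.229% and 14.01% and the black points at 61.28% and 65.4%; replicate 2 shows the blue and gray curves drawing nearer toward 100 kb.

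Few sites lay at an H3K9Ac peak of at least 1 kb (9 sites, 3.83%, against 0.636% of the list). Most of the list has no H3K9Ac peak, which the rule required. Among the H3K9Ac-only peaks 5 of the 246 did (2.033%). Of the 9 sites, 5 were in repeat windows and 4 in antigen receptor windows, and 0 were elsewhere. They lay on only 4 H3K9Ac replicate 1 peaks of that width, so they are not 9 separate places. Over the 192 sites outside both kinds of window, the H3K9Ac peak was at most 857 bp wide in replicate 1 and 711 bp in replicate 2, with medians of 374 and 246.5 bp. The antigen receptor windows, the loci whose gene segments lymphocytes recombine, held 5 sites in all: 2 of the 12 BRWD1 replicate 1 peaks in the Igk window, 3 of the 12 in the Igh window, and 0 of the 2, 2, 5 and 3 in the Igl, Tcrb, Tcra and Tcrd, and Tcrg windows.

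The Igk window, on chromosome 6, held the most extreme site. From 70675735 to 70676851, it was the widest of all at 1117 bp and the top peak of BRWD1 replicate 1, of H3K9Ac replicate 1 and of H3S10pK14Ac replicate 1, with scores of 214.64, 676.01 and 85.81. The replicate 2 scores were 48.3 in BRWD1 (rank 17), 75.05 in H3K9Ac (rank 8) and 63.31 in H3S10pK14Ac (rank 4). Its intervals did not stack like those of most sites. The H3K9Ac peaks were 8054 and 4370 bp wide and reached mostly to lower coordinates, so that their centres lay 3342.5 and 1729.5 bp from the BRWD1 centre, whereas the H3S10pK14Ac replicate 1 peak, from 70675737 to 70676848, had nearly the same ends as the BRWD1 replicate 1 peak. In replicate 2 both were shorter: BRWD1 was called from 70675648 to 70676090, and the best-scoring of 2 H3S10pK14Ac peaks from 70675506 to 70676190. The other Igk site, from 67781043 to 67781116, was of the common narrow kind, scored 21.91 and 22.38 in the BRWD1 lists, 15.54 and 9.89 in the H3K9Ac lists and 8.06 in H3S10pK14Ac replicate 2, at H3K9Ac peaks of 375 and 161 bp.

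The Igh window, on chromosome 12, held 3 sites within 2.804 kb, where strong H3K9Ac met low BRWD1 replicate 1 scores. They lay from 114663721 to 114664050, from 114664118 to 114664284 and from 114666135 to 114666524, under a single H3K9Ac replicate 1 peak of 4669 bp that scored 170.92, rank 2 in its list. Their H3K9Ac replicate 2 scores were 106.6, 106.6 and 74.94, the first of these peaks being the top of that list, and the first 2 sites share it. The BRWD1 replicate 1 scores were 5.64, 5.1 and 6.29, at percentiles 76.8, 3.50 and 77.9 of that list, and the BRWD1 replicate 2 scores were 23.26, 23.26 and 6.93, the first 2 again from 1 shared peak. H3S10pK14Ac was found in replicate 2 at the first 2, scored 7.92 and 6.91, and in replicate 1 at the third, scored 7.7. In replicate 1 the H3K9Ac percentile was thus above the BRWD1 percentile at all 3, while over the sites as a whole the median percentile was lower in H3K9Ac than in BRWD1.

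A window over the histone gene cluster of chromosome 13, from which histones themselves are made, held 2 sites out of 12 BRWD1 replicate 1 peaks, and the cluster on chromosome 3 held 0 of 6. Both sites were in all 6 lists. The site from 21584701 to 21584852 scored 48.94 and 35.52 in BRWD1, 25.94 and 14.54 in H3K9Ac, and 6.08 and 12.81 in H3S10pK14Ac. The site from 23488917 to 23489000 scored 69.97 and 50.03, 35.53 and 32.55, and 6.45 and 32.92 in the same order, and the last of these ranked 7 in H3S10pK14Ac replicate 2.

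The 83 sites outside all 5 larger lists were split by the list they missed: 45 had no H3K9Ac replicate 1 peak, 36 no H3K9Ac replicate 2 peak and 2 no H3S10pK14Ac replicate 2 peak. By pattern of marks, 45 had H3K9Ac and H3S10pK14Ac from replicate 2 alone, 34 had H3K9Ac replicate 1 with H3S10pK14Ac replicate 2, and 4 had another mix. Sites missed by H3K9Ac replicate 1 mostly had a lower BRWD1 score in replicate 1 than in replicate 2. Depth is unknown, so this does not say in which replicate BRWD1 was stronger there. At the 45 sites without H3K9Ac replicate 1 the BRWD1 score was lower in replicate 1 than in replicate 2 at 35 and higher at 10, with medians of 8.52 and 15.83, and the percentile was higher in replicate 1 at 4. At the 36 sites without H3K9Ac replicate 2 it was lower in replicate 1 at 13 and higher at 23, with medians of 15.1 and 12.91, and the percentile was higher in replicate 1 at 16, against 55 of all 235 sites. Of the 45, 17 were in repeat windows, and at the 28 outside them the score was lower in replicate 1 at 25 and higher at 3, with medians of 6.565 and 14.51 and a higher percentile in replicate 1 at 1 site. None (0) of the 36 was in a repeat window. The labels do not say whether replicates of the same number share mice or a day of work.

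The 10 best of the 83 by BRWD1 percentile include sites of both kinds. On chromosome 8, the site from 55392129 to 55392237 scored 72.23 and 22.38 in BRWD1, 36.97 in H3K9Ac replicate 1 and 9.77 and 10.4 in H3S10pK14Ac, with no H3K9Ac replicate 2 peak. On the same chromosome, the site from 56064514 to 56064621 scored 31.72 and 15.81 in BRWD1, 19.33 in H3K9Ac replicate 1 and 10.95 and 6.7 in H3S10pK14Ac. The site on chromosome 9 from 43118199 to 43118321 scored 76.77 and 14.24 in BRWD1, 50.46 in H3K9Ac replicate 1 and 5.56 in H3S10pK14Ac replicate 2. Also without H3K9Ac replicate 2 were chromosome 11 from 68924412 to 68924515, with BRWD1 scores of 43.51 and 25.82, the same chromosome from 74133321 to 74133427, with 39.41 and 15.81, and chromosome 9 from 43276896 to 43276974, with 25.9 and 17.41. At these 6 sites H3K9Ac replicate 1 scored between 8.97 and 50.46, and the BRWD1 score was higher in replicate 1. Without H3K9Ac replicate 1 were chromosome 9 from 24346499 to 24346586, with BRWD1 scores of 27.43 and 22.31, chromosome 13 from 44964943 to 44965058, with 23.84 and 29.6, and a pair in repeat windows on chromosomes 9 and 12.

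Sequence present in many copies is known for high signal in ChIP and input libraries alike, so windows around such places were looked at separately. They were set from general knowledge of the mouse assembly, but with earlier results of these data known, so the shares below are descriptions. They held 38 of the 235 sites (16.17%), against 66 peaks (1.14%) of the BRWD1 replicate 1 list and 4 of the 246 H3K9Ac-only peaks (1.626%). Of the 204 reproducible peaks without H3K9Ac they held 12 (5.882%). Of the 38, 21 were in all 5 larger lists, and 0 had an H3S10pK14Ac replicate 1 peak. All 33 sites with a peak in that list, and so all 29 in all 6 lists, lay outside the windows. Without the windows, 197 sites remained, 131 of them in all 5 larger lists. Signal in the input samples was not analysed here, so what these windows would show without an antibody was not tested.

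The first window, at the start of chromosome 9, held 26 sites between 3000009 and 3036372, 11 of them in all 5 larger lists. Their BRWD1 scores ran from 5.52 to 44.43 in replicate 1, with a median of 16.42, and from 5.92 to 46.45 in replicate 2. H3K9Ac replicate 2 had a peak at all 26, scored 5.66 to 27.27, while H3K9Ac replicate 1 had one at 11, scored 5.6 to 11.95. H3S10pK14Ac replicate 2 scored 5.9 to 25.01. The sites followed each other with a median gap of 635 bp and shared targets: the 26 overlapped 20 peaks of BRWD1 replicate 2, 8 and 21 of H3K9Ac and 21 of H3S10pK14Ac replicate 2. Their weight shows in the chromosome counts, where chromosome 9 had 39 sites (16.6%, against 6.02% of the list), of which 12 were outside the windows. Chromosome X had 3 sites (1.277%, against 3.82%), Y had 1, and the other chromosomes had 2 to 17 each.

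**Figure D5:**
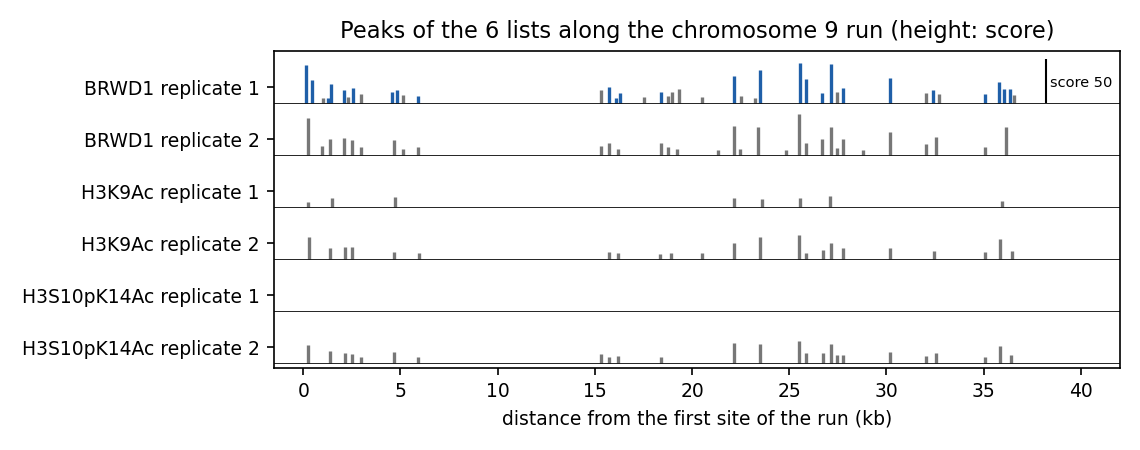
Peaks of the 6 lists along the run of sites at the start of chromosome 9, by distance in kb from the first site; height is the score (scale bar, 50), and blue bars in the top row are the 26 sites. BRWD1 replicates 1 and 2, H3K9Ac replicate 2 and H3S10pK14Ac replicate 2 repeat nearly the same positions, H3K9Ac replicate 1 has 8 peaks at the sites, and H3S10pK14Ac replicate 1 has none in the run.

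On chromosome 2, a window of satellite-like sequence held 5 sites between 98502400 and 98507464, all in all 5 larger lists and making up all 5 of the BRWD1 replicate 1 peaks there. They scored 32.2 to 52.28 and 34.58 to 102.93 in BRWD1, 6.72 to 39.82 and 17.59 to 66.74 in H3K9Ac, and 18.01 to 65.89 in H3S10pK14Ac replicate 2. Of these, the intervals from 98506395 to 98506502 and from 98506577 to 98507464 were among the 10 best sites and lie on the same peak in each other list. On chromosome 17, a window of ribosomal RNA repeat held 4 sites between 39983680 and 39985193, also all of the BRWD1 replicate 1 peaks there. They scored 51.33 to 93.88 and 54.77 to 94.1 in BRWD1, 35.02 to 104.24 and 18.88 to 28.47 in H3K9Ac, and 17.82 to 23.09 in H3S10pK14Ac replicate 2, and 3 of them share 1 peak in each other list. Single sites were found at 3 more windows. Chromosome 9 from 35112797 to 35113098 scored 38.66 and 102.49 in BRWD1, 24.57 and 55.81 in H3K9Ac, and 58.16 in H3S10pK14Ac replicate 2. Chromosome 12 from 3109995 to 3110075 scored 28.98 and 18.8 in BRWD1, 17.18 in H3K9Ac replicate 2 and 11.93 in H3S10pK14Ac replicate 2. Chromosome 6 from 103599064 to 103599241, in a mitochondrial-like insertion, scored 17.09 and 23.3 in BRWD1, 15.79 in H3K9Ac replicate 2 and 12.4 in H3S10pK14Ac replicate 2. These last 2 had no H3K9Ac replicate 1 peak, as was also so at 15 of the 26 sites of the first window.

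Sites near each other were mostly those in these windows. With gaps of at most 10 kb joined, 46 sites fell into 8 runs and 189 stood alone, which makes 197 separate places; 6.74% of all BRWD1 replicate 1 peaks had another peak of their list that near. Runs of at least 3 sites numbered 4 (at the start of chromosome 9, in the windows of chromosomes 2 and 17 and at Igh) and held 38 of the 46. Outside the repeat windows 11 sites were in runs. The 235 sites overlapped 221 distinct peaks of BRWD1 replicate 2, and where 2 sites lie on 1 such peak they are not separate measurements of it.

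The edge of the rule was sharp in position. The 5 sites with the smallest deciding overlap were chromosome 2 from 135625977 to 135626037 (39 bp), chromosome 16 from 78253033 to 78253198 (42 bp), chromosome 6 from 17443223 to 17443286 (47 bp), chromosome 17 from 39984235 to 39984331 (49 bp) and chromosome 12 from 12377432 to 12377495 (51 bp). Just outside, among the H3K9Ac-only peaks, were chromosome 9 from 61102183 to 61102385, 15 bp from an H3S10pK14Ac peak, then 3036532 to 3036594 (48 bp) and 3018749 to 3018813 (207 bp) on the same chromosome, chromosome 12 from 114664507 to 114664766 (209 bp) and chromosome 9 from 49273921 to 49273998 (537 bp). Of these 5, the second and the third lie in the window at the start of chromosome 9 and the fourth in the Igh window. Within 10 kb of an H3S10pK14Ac peak were 30 of the 246, so most H3K9Ac-only peaks had no called peak of that mark so near. The same share over all BRWD1 replicate 1 peaks is not given here. A lack of a called peak does not show that the mark was absent, since H3S10pK14Ac replicate 1 holds only 103 peaks.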

How the data were processed

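The 6 ChIP-seq peak lists, 1 for each of 2 biological replicates of 3 antibodies, were used as deposited. The submitters' processing notes name MACS2, Picard, BWA 0.7.5 and Trimmomatic 0.32 and the build mm9. They give no settings, nor which input a library was set against, nor how reads with several matches were handled. The deposited score of a peak, made by the authors, was read as −log10 of a p-value or q-value from the naming of the lists and the values, since no source used here defines it; the scores and lists were not normalized for depth, which is unknown.

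From these lists, overlaps of at least 1 bp, percentiles with ties at their mean rank, centre distances and neighbours were computed with Python 3.11.15, pandas 2.3.3 and NumPy 2.4.6 and tested on simulated intervals. Where several peaks of a list overlapped a site, the one with the highest score was taken. This arose at 2 sites, both in H3S10pK14Ac replicate 2. Named sites are the 10 best and 5 lowest in all 5 larger lists, the 10 best of the rest, runs of at least 3, those in repeat, receptor or histone windows, those nearest the rule's edge, and the widest and narrowest. Windows cover known repeats, the loci named and the first 250 kb after the 3 Mb gap of each chromosome but Y. The sites, lists and windows were chosen with earlier results of these data known. No test was run: the sites were chosen on these calls, and 2 lists an antibody cannot go below an exact two-sided p of 0.333.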

Additional observations from a re-analysis of the deposited data

Results flagged for a closer look

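Peaks on the mitochondrial chromosome were outside the rule that chose the sites, which used chromosomes 1 to 19, X and Y. BRWD1 replicate 2 had 16 such peaks, H3K9Ac replicate 2 had 15 and H3S10pK14Ac replicate 2 had 4. BRWD1 replicate 1 had 2, and H3K9Ac replicate 1 and H3S10pK14Ac replicate 1 had 0, a count from a list that holds only called peaks. One (1) mitochondrial BRWD1 replicate 1 peak, from 15402 to 15526 with a score of 6.98, met the rest of the rule.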

How the results depend on the processing

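Of 60 alternative values, 42 stayed within the limit set for them (1.5-fold for counts) and 18 moved. With every list held to scores of 10 or more, 96 sites remained, 50 of them in all 5 larger lists, with a median percentile of 98.82, 24 within 10 kb of another and 25 in repeat windows. With each mark required in both replicates 29 sites met the rule, and with each mark's first list alone 33. Without repeat windows 11 sites lay within 10 kb of another. With 1 library left out at a time, the count of sites ran from 33 (without H3S10pK14Ac replicate 2) to 341 (without BRWD1 replicate 1), those in every larger list that remained (4 lists where a larger one was left out) from 31 to 197, the median percentile from 97.0 to 99.5, the share inside an H3K9Ac peak from 79.4% (without H3K9Ac replicate 1) to 100%, the median distance between BRWD1 centres from 3.0 to 6.0 bp, sites within 10 kb of another from 0 to 45 and sites in repeat windows from 0 to 38; both counts of 0 came from leaving out H3S10pK14Ac replicate 2, which leaves the 103 peaks of replicate 1 to stand for that mark. The count stayed within 1.5-fold with 50% of the smaller peak overlapped (232), with peaks within 1 kb counted (264), with overlapping peaks merged (222), with BRWD1 replicate 2 as the base (222) and with the second lists of both marks (197). No paired analysis was possible because the sites come from overlaps of lists and not from a test between groups. The depth behind each list is unknown, so it cannot be said how many sites a deeper H3S10pK14Ac replicate 1 would hold.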
